A study of Mus musculus with 2 samples.

Results

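Klra8 and Klra4 encode Ly49H and Ly49D, activating receptors of natural killer (NK) cells, and were followed here in NK cells sorted from the brain. Both genes were found by symbol in both libraries, as 2 of 31053 counted genes and 2 of 11 genes of the Ly49 (Klra) family. The groups were 3xTg-AD mice (written 3XTg-AD in the labels), a transgenic model of Alzheimer's disease, and wildtype C57BL/6 mice labelled healthy. All animals were untreated females aged 8 months, and there was 1 single-cell library of each genotype, made with a 10x Genomics kit that reads the 5′ end of transcripts. How many mice were pooled is not stated in the labels, nor is the strain background of the 3xTg-AD mice. The 3xTg-AD line was originally made on a mixed 129 and C57BL/6 background, and Klra8 is polymorphic between mouse strains, so strain and transgenes cannot be told apart in these 2 libraries. With 1 library per genotype nothing could be tested: intervals below are 95% intervals, cover counting error only, and say nothing of differences between animals.

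Ly49 receptors are lectin-like proteins at the NK cell surface that read MHC class I and related molecules. Most of them inhibit the cell, whereas Ly49H and Ly49D lack the inhibitory motif and signal through the adaptor DAP12, encoded by Tyrobp. Ly49H binds a glycoprotein of mouse cytomegalovirus and gives C57BL/6 mice resistance to that virus, and Ly49D binds certain MHC class I molecules. Each NK cell switches on its own combination of Ly49 genes during maturation, so a population is a mosaic of cells that carry or lack a given receptor.

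On the mm10 genome with GENCODE M21 gene models, Klra8 (ENSMUSG00000089727) lies on the minus strand at chr6:130115226-130129898 and Klra4 (ENSMUSG00000079852) on the same strand at chr6:130043731-130067271. The gap between them is 48.0 kb and holds 1 other family member, the pseudogene Klra11-ps. Their longest annotated transcripts were 77.9% identical over 1144 aligned bases. The stretch upstream of the annotated starts was closer, at 84.9% identity over 219 aligned bases, while the same stretch of other Ly49 genes was 59.5% to 82.5% identical to that of Klra8 and 53.2% to 84.0% to that of Klra4. Klra17, at 84.0% over 213 bases, was about as close to Klra4 as Klra8 was. Both stretches are printed because they show what the pair shares next to its starts. They come from RefSeq on GRCm38.p6 and run from 250 to 31 bases before the transcript starts that equal the GENCODE gene ends above, on the minus strand, at chr6:130129929-130130148 for Klra8 and chr6:130067302-130067521 for Klra4. The RefSeq gene record of Klra4 reaches further upstream, to base 130067301, and so ends next to the printed stretch. Capitals mark exact runs of at least 15 bases found in both.
Klra8: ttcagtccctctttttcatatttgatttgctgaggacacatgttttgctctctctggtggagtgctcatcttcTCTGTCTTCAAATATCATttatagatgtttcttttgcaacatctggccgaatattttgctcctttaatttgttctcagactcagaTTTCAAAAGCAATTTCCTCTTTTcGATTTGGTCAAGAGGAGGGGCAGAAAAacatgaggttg
Klra4: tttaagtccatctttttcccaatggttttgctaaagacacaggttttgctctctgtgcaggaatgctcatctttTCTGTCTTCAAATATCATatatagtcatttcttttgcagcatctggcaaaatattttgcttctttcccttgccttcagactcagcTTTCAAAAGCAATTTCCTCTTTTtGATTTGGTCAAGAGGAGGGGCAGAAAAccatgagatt
The shared runs cover 68 of 220 bases, and the longest is 27 bases. Other Ly49 genes were not searched for these runs, so whether the runs are particular to the pair was not tested.

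Sequence also bears on what the Klra8 counts can hold. Of the 226 windows of 75 bases in the first 300 bases of the Klra8 transcript, where a 5′ library places its reads, 163 (72.1%) occur unchanged in Klra14-ps, a transcribed pseudogene that is not among the counted genes. Over the whole transcript the shared part was 16.0% for Klra14-ps, 2.90% for Klra9 and 0.725% for Klra10. The first 300 bases of Klra4 shared no window with any other Ly49 gene, and 4 windows of its whole transcript (0.342%) occur in Klra1. At this window length, reads of Klra14-ps can therefore not be told apart from reads of Klra8 over most of the region read. The first 300 bases of Klra4 had no such exact overlap. Near matches were not counted: the longest Klra4 transcript was 88.4% identical to that of Klra13-ps, 87.0% to Klra1 and 85.7% to Klra7. The longest Klra8 transcript was 91.3% identical to that of Klra10 and 90.6% to Klra9. RefSeq lists Ly49u as the 129 strain synonym of Klra8 and ly49r as that of Klra4, and how far reads of such alleles are counted under these 2 symbols was not tested.

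In all, 1695 barcodes with 5468455 unique molecular identifiers (UMIs) were deposited for 3xTg-AD and 1709 with 5559995 UMIs for wildtype, at medians of 2846 and 2930 UMIs a barcode. A barcode counted as NK with at least 2 summed UMIs of Ncr1, Klrb1c and Klrk1, few UMIs of other lineages and under 3 summed UMIs of Itga1, Cxcr6, Inpp4b, Gzmc and Tnfsf10, 5 markers of type 1 innate lymphoid cells (ILC1), and as ILC1-like with 3 or more UMIs of these ILC1 markers. This gave 1508 NK barcodes in 3xTg-AD and 1477 in wildtype. Of NK genes that the gate did not use, Gzma was found in 97.8% of 3xTg-AD and 95.4% of wildtype NK barcodes, Prf1 in 84.5% and 81.9%, and Eomes in 45.0% and 42.4%. High Ncr1 (98.4% and 95.7%) and near-absent Cd3e (0 and 1 barcode) follow from the gate. The libraries shared 1 barcode sequence.

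Klra8 was higher in the 3xTg-AD library, and Klra4 by a smaller margin. Summed over NK barcodes, Klra8 had 3387 UMIs in 3xTg-AD, which is 733 counts per 1000000 UMIs (CPM; 708 to 758), and 1730 UMIs or 375 CPM (358 to 393) in wildtype. The ratio of 3xTg-AD over wildtype was 1.95 (1.84 to 2.07). Klra4 had 2756 UMIs or 596 CPM (574 to 619) in 3xTg-AD and 2188 UMIs or 475 CPM (455 to 495) in wildtype, a ratio of 1.26 (1.19 to 1.33). As background, 3.5% of the 7208 genes with 100 or more UMIs lay 1.5-fold or more above wildtype and 2.4% lay 1.5-fold or more below, so 1 of the 2 receptors, Klra8, passed that fold upward. Only 54 genes had a higher ratio than Klra8, against 1033 for Klra4. The median log2 ratio over all these genes was 0.05, beside 0.97 for Klra8 and 0.33 for Klra4.

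The order of the pair differed between the libraries. Klra8 was the more abundant gene of the pair in 3xTg-AD, and Klra4 in wildtype, as counted UMIs that are not corrected for transcript length. The adaptor gene Tyrobp was level, at 4377 CPM in 3xTg-AD and 4368 CPM in wildtype (95% interval of the ratio 0.983 to 1.02), and Hcst, which encodes the adaptor DAP10, had a ratio of 0.922 (0.881 to 0.966). The NK receptor gene Ncr1, which was also part of the gate, had a ratio of 1.34 (1.30 to 1.38).

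Other Ly49 genes went both ways. Of the 7 with at least 20 UMIs, Klra3 (ratio 1.81, 1.65 to 1.99) and the scarce Klra6 (2.49, 1.46 to 4.42) were at least 1.5-fold higher in 3xTg-AD, and Klra1 (0.351, 0.313 to 0.393) and Klra5 (0.486, 0.375 to 0.625) at least 1.5-fold lower. Klra9 (1.18, 1.10 to 1.27) and Klra10 (1.31, 0.826 to 2.10) stayed under that fold, as did Klra7, at 345.9 CPM in 3xTg-AD and 345.8 CPM in wildtype. Klra1 encodes the inhibitory receptor Ly49A, and it had 89.6 CPM in 3xTg-AD and 255 CPM in wildtype. Klra2 and Klra17 were under 20 UMIs and are not described.

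**Figure D1:**
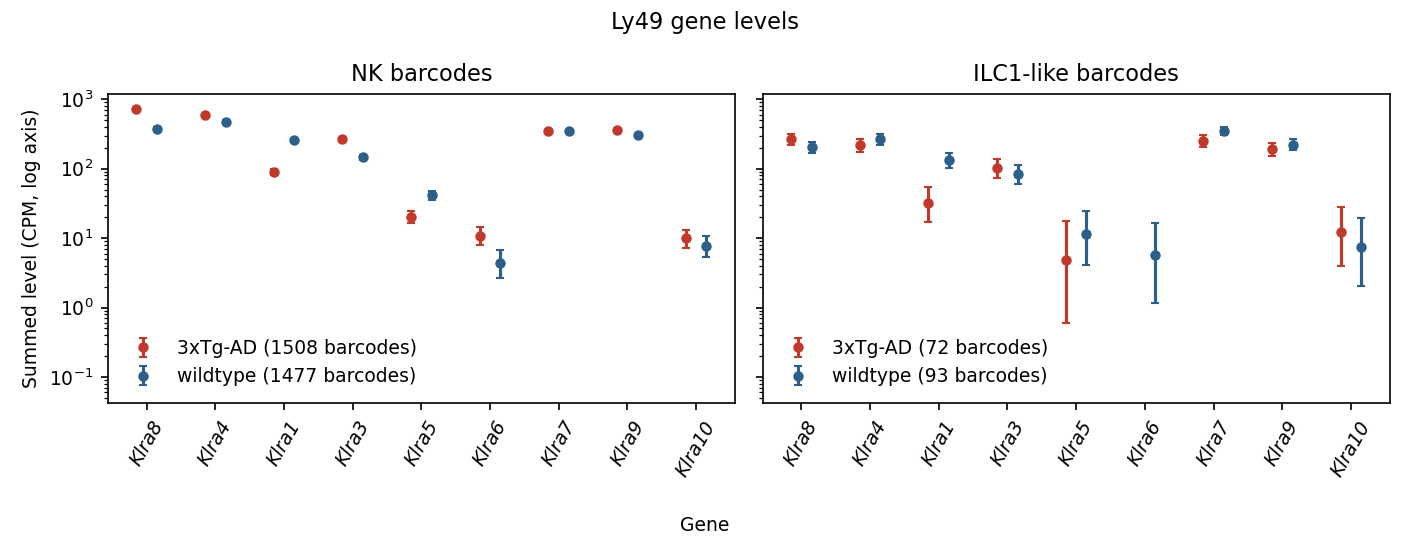
Summed level of each Ly49 gene (CPM, log axis) in NK barcodes (left) and ILC1-like barcodes (right), with 3xTg-AD in red left of wildtype in blue and bars for exact Poisson 95% intervals. In NK barcodes Klra8 stands at 733 CPM in 3xTg-AD and 375 CPM in wildtype, and Klra1 at 89.6 and 255 CPM. Klra6 has no point in 3xTg-AD ILC1-like barcodes, where it had 0 UMIs.

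The Klra8 difference lay both in how many barcodes held the gene and in how much each held. Without thinning, 69.2% of 3xTg-AD NK barcodes (66.8% to 71.6%) and 48.1% of wildtype NK barcodes (45.5% to 50.7%) had a Klra8 UMI, at median depths of 2791 and 2868 UMIs. After each barcode was thinned to 1400 UMIs, which left out 75 3xTg-AD and 111 wildtype barcodes as shallower, the shares were 51.8% (49.2% to 54.4%) of 1433 in 3xTg-AD and 32.5% (30.0% to 35.1%) of 1366 in wildtype. The difference was 19.3 percentage points (15.6 to 22.9), and it ran from 17.6 to 21.5 over 20 thinning draws. Barcodes with Klra8 held a mean of 3.24 UMIs of it in 3xTg-AD and 2.44 in wildtype.

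Klra4 was found in nearly equal shares of barcodes. Unthinned shares were 51.1% (48.5% to 53.6%) in 3xTg-AD and 49.4% (46.8% to 52.0%) in wildtype, and thinned shares were 40.1% (37.6% to 42.7%) and 37.6% (35.1% to 40.3%). The thinned difference of 2.50 points (-1.17 to 6.15) was not distinguishable from 0 at this depth, and over 20 draws it averaged 3.44, with 7 of 20 intervals above 0. Thinned to 1000 UMIs, it was 6.95 points (3.49 to 10.4). The amount per barcode differed more: positive barcodes held a mean of 3.58 UMIs in 3xTg-AD and 3.00 in wildtype.

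At the upper end, 15.9% (14.1% to 17.9%) of 3xTg-AD and 5.82% (4.68% to 7.14%) of wildtype NK barcodes had 5 or more Klra8 UMIs, and these barcodes held 50.1% and 33.4% of all Klra8 UMIs. For Klra4 the corresponding shares were 14.9% (13.1% to 16.8%) and 9.95% (8.47% to 11.6%), with 56.2% and 44.2% of its UMIs. Such barcodes thus held a larger part of the Klra4 than of the Klra8 UMIs in both libraries. The Klra8 excess was seen at every depth: in the shallowest, middle and deepest NK barcodes the share with a UMI was 60.4%, 71.3% and 76.6% in 3xTg-AD, and 37.5%, 51.4% and 54.7% in wildtype. Neither gene was found in barcodes with myeloid markers, with 0 of 17 in 3xTg-AD (3 counts, the limit that a count of 0 allows, would be 17.6%) and 0 of 4 in wildtype (75.0%), at median depths of 2143 and 1682 UMIs. These barcodes were chosen to hold under 2 summed UMIs of Ncr1, Klrb1c and Klrk1, which leaves out those with more NK RNA. Of the 17 in 3xTg-AD, 2 still held Ncr1 and 1 held Klra7. These few barcodes therefore cannot tell how much background signal there was.

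**Figure D2:**
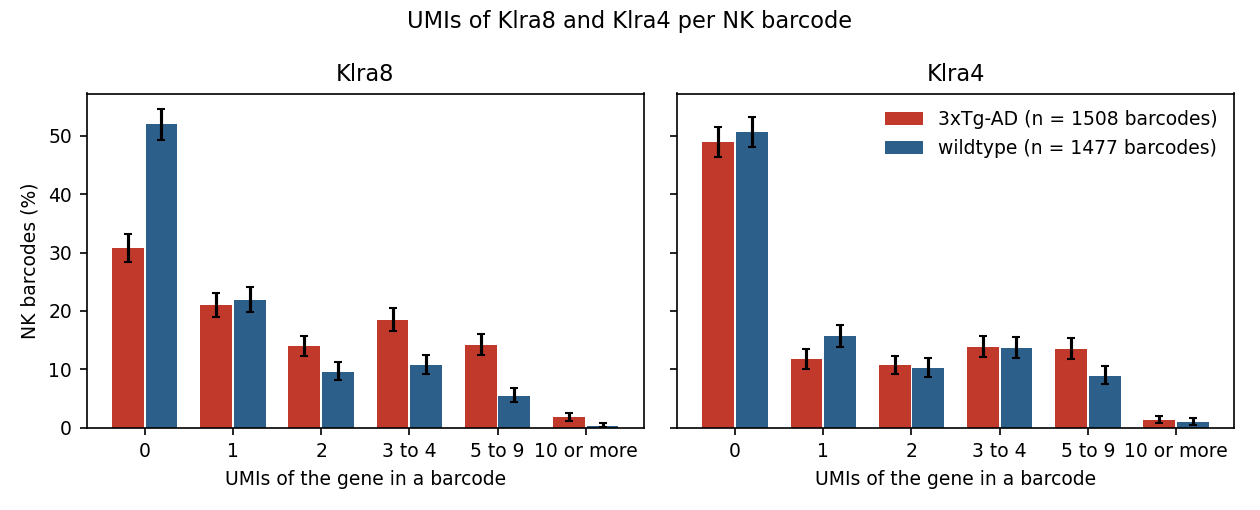
Share of NK barcodes (%) by the number of Klra8 (left) or Klra4 (right) UMIs they held, unthinned, with 3xTg-AD in red left of wildtype in blue and bars for exact binomial 95% intervals. Barcodes without Klra8 make up 30.8% in 3xTg-AD and 51.9% in wildtype, while those without Klra4 make up 48.9% and 50.6%.

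ILC1-like barcodes carried less of both genes than NK barcodes in each library by CPM, although the intervals of thinned shares overlapped in wildtype. ILC1 are tissue-resident relatives of NK cells, and their 5 markers were set by the gate. Of genes the gate did not use, Gzma was found in 44.4% of these barcodes in 3xTg-AD and 58.1% in wildtype. Prf1 was found in 36.1% and 59.1%, and both genes were below their NK shares. Eomes was found in 58.3% and 48.4%, above its NK shares, but these shares are unthinned. Its level was not higher, at 204 CPM in ILC1-like and 236 CPM in NK barcodes of 3xTg-AD, and 194 and 217 CPM in wildtype. ILC1-like barcodes numbered 72 in 3xTg-AD and 93 in wildtype, and were deeper than NK barcodes, with medians of 5555 and 5312 UMIs. In 3xTg-AD, Klra8 had 265 CPM in ILC1-like and 733 CPM in NK barcodes (ratio 0.362, 0.296 to 0.438), and in wildtype 202 and 375 CPM (0.538, 0.438 to 0.654). Klra4 had 217 CPM in ILC1-like and 596 CPM in NK barcodes of 3xTg-AD (0.363, 0.291 to 0.449), and 264 and 475 CPM in those of wildtype (0.557, 0.466 to 0.660). Both levels fell with depth among NK barcodes. In the deepest NK barcodes Klra8 was at 652 CPM in 3xTg-AD and 344 CPM in wildtype, and Klra4 at 490 and 427 CPM. Thinned ILC1-like and NK shares in 3xTg-AD were 22.2% and 51.8% for Klra8, and 15.3% and 40.1% for Klra4. In wildtype they were 23.3% and 32.5% for Klra8, and 27.8% and 37.6% for Klra4, with overlapping intervals. Most other Ly49 genes were also lower in ILC1-like barcodes, so this was not particular to the pair. The ILC1-like over NK ratios were 0.353 in 3xTg-AD and 0.518 in wildtype for Klra1, and 0.387 and 0.570 for Klra3. They were 0.242 and 0.273 for Klra5, and 0.533 and 0.735 for Klra9. Klra7 was less reduced, at 0.718 (0.582 to 0.877) in 3xTg-AD and 1.01 (0.862 to 1.18) in wildtype. The scarce Klra6 (0 and 1.30) and Klra10 (1.22 and 0.994) had no common direction.

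Between genotypes, the ILC1-like values of both receptors depended on the gate and the scaling. Klra8 had 109 UMIs in 3xTg-AD and 107 in wildtype, a CPM ratio of 1.31 (0.997 to 1.73), and Klra4 had 89 and 140 UMIs, a ratio of 0.820 (0.622 to 1.08). Of 1232 genes with at least 100 UMIs there, 2.6% were 1.5-fold higher and 3.25% 1.5-fold lower in 3xTg-AD, and neither receptor passed that fold. Thinned shares were 22.2% (13.3% to 33.6%) in 3xTg-AD and 23.3% (15.1% to 33.4%) in wildtype for Klra8, and 15.3% (7.88% to 25.7%) and 27.8% (18.9% to 38.2%) for Klra4. With 2 summed ILC1 UMIs (99 3xTg-AD and 129 wildtype barcodes) the Klra8 ratio was 1.68 (1.34 to 2.12), past the 1.5-fold, and in 7 of 12 alternatives with an interval that interval lay above 1. Klra4 had 2 such intervals below 1, at 0.713 (0.549 to 0.922) with barcodes of other lineages kept and 0.713 (0.525 to 0.961) without the barcodes richest in interferon genes. With 5 summed ILC1 UMIs the Klra8 ratio was 0.868 (0.554 to 1.33), and with the gate set on thinned counts, which left 15 3xTg-AD and 31 wildtype barcodes, it was 0.585 (0.243 to 1.28) for Klra8 and 1.16 (0.695 to 1.90) for Klra4.

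In single NK cells the 2 receptors were detected together more often than the product of their shares. In thinned 3xTg-AD barcodes, 24.4% (22.2% to 26.7%) held both genes, 27.4% Klra8 only, 15.7% Klra4 only and 32.5% neither. In wildtype, 13.8% (12.05% to 15.8%) held both, 18.7% Klra8 only, 23.8% Klra4 only and 43.7% neither. Joint detection was 1.18 times the product of the shares in 3xTg-AD and 1.13 times in wildtype. Klra4 was found in 47.2% of Klra8-positive and 32.6% of Klra8-negative barcodes of 3xTg-AD, a difference of 14.6 points (9.46 to 19.7), and in 42.6% and 35.2% of those of wildtype, a difference of 7.32 points (1.69 to 13.0). Over 20 thinning draws the difference was above 0 in every draw, with means of 16.7 and 8.99 points. Thinned to 1000 UMIs, the wildtype difference was 4.73 points and its interval reached 0 (-0.810 to 10.46). The size also moved with the rule for a positive barcode: it was 24.9 points in 3xTg-AD and 14.7 in wildtype without thinning, and 8.69 and 14.5 with 2 UMIs needed. Whether this association is larger in 3xTg-AD than in wildtype was not tested, and the 2 intervals overlap.

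The share with Klra4 was also read by the amount of Klra8. In 3xTg-AD, Klra4 was found in 43.4%, 47.2% and 53.8% of barcodes with 1, 2 and 3 or more Klra8 UMIs, and in wildtype in 41.1%, 45.0% and 44.3%. The intervals at neighbouring steps overlapped in both libraries. ILC1-like barcodes held both genes in 5 of 72 in 3xTg-AD and 11 of 90 in wildtype, where the products of the shares would give 3.395% and 6.48%, against 6.94% (2.29% to 15.5%) and 12.2% (6.26% to 20.8%) observed.

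Klra8 and Klra4 differed in which other Ly49 genes they were found with. Klra7, which encodes the inhibitory Ly49G, had higher shares with either, although by Klra8 the wildtype intervals overlapped. It was found in 32.2% of Klra8-positive and 24.9% of Klra8-negative barcodes in 3xTg-AD and in 32.0% and 27.2% in wildtype. Grouped by Klra4 it was found in 34.6% of positive and 24.7% of negative barcodes in 3xTg-AD and in 36.2% and 24.3% in wildtype. Klra1 went with Klra4: 11.3% of positive and 6.76% of negative barcodes held it in 3xTg-AD, and 32.3% and 18.5% in wildtype. Between Klra4-positive and negative wildtype barcodes, the share differed more for Klra1 (13.8 points) and Klra7 (11.9 points) than for Klra8 (6.84 points). In 3xTg-AD the order in points was reversed, with 15.2 points for Klra8, 9.90 for Klra7 and 4.54 for Klra1. Points depend on how common a gene is, and Klra1 was in 8.58% of thinned 3xTg-AD and 23.7% of thinned wildtype barcodes. As odds ratios by Klra4, Klra8 had 1.85, Klra1 1.76 and Klra7 1.61 in 3xTg-AD. In wildtype Klra1 had 2.10, Klra7 1.77 and Klra8 1.36, so Klra1 stayed above Klra7 in both libraries on that scale. Grouped by Klra8, Klra1 shares were 9.30% of positive and 7.81% of negative barcodes in 3xTg-AD and 21.8% and 24.6% in wildtype, with overlapping intervals. The 4 windows shared by the Klra4 and Klra1 transcripts lie outside the first 300 bases of Klra4. Klra9, which encodes the inhibitory Ly49I, was found in 23.5% of Klra4-positive and 32.5% of Klra4-negative barcodes of 3xTg-AD but in 29.8% and 27.5% of those of wildtype. Barcodes with either activating gene and none of the other 7 Ly49 genes made up 18.9% (16.9% to 21.0%) of the thinned 3xTg-AD and 13.6% (11.8% to 15.6%) of the thinned wildtype NK barcodes.

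**Figure D3:**
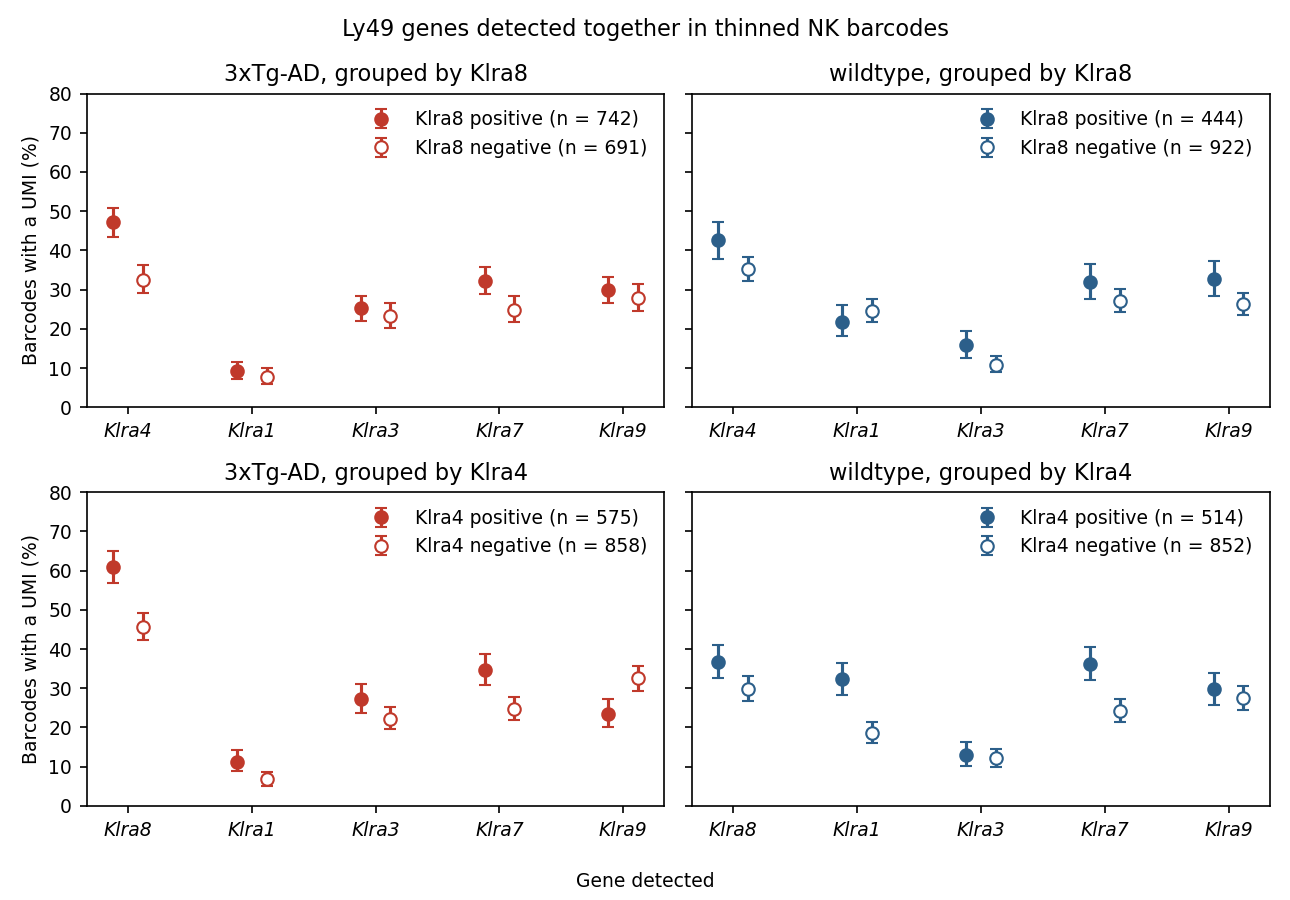
Share of thinned NK barcodes (%) in which another Ly49 gene was detected, for barcodes positive (filled) and negative (open) for Klra8 (top) or Klra4 (bottom), in 3xTg-AD (left, red) and wildtype (right, blue), with exact binomial 95% intervals. Klra4 was found in 47.2% of Klra8-positive and 32.6% of Klra8-negative 3xTg-AD barcodes, and Klra1 in 32.3% of Klra4-positive and 18.5% of Klra4-negative wildtype barcodes.

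The clearest partner outside the family was Klrc1, which encodes NKG2A, an inhibitory receptor for the class I molecule Qa-1. Klra4 was found in 19.0% (15.4% to 23.0%) of Klrc1-positive and 49.1% (46.0% to 52.2%) of Klrc1-negative barcodes of 3xTg-AD, and in 21.5% (18.0% to 25.4%) and 46.7% (43.4% to 50.1%) of those of wildtype. The differences were -30.1 points (-34.9 to -25.0) and -25.2 points (-30.1 to -20.1). With 2 UMIs needed they were -18.0 points (-21.9 to -13.8) and -15.8 points (-19.7 to -11.8). Klra8 showed the same direction with a smaller size, at 40.0% of Klrc1-positive and 56.8% of Klrc1-negative barcodes in 3xTg-AD and 25.2% and 36.7% in wildtype, differences of -16.7 points (-22.3 to -11.0) and -11.5 points (-16.5 to -6.32). All 4 differences were below 0 in each of 20 thinning draws. Klrc1 ranked as the gene least like both members, which is how it came to be named, so these values describe the pattern and are no test of it.

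By class, Klrc1 was found in 13.1% of barcodes with both activating genes, 31.9% with Klra8 only, 15.6% with Klra4 only and 47.4% with neither in 3xTg-AD, and in 18.5%, 34.9%, 21.8% and 49.9% in wildtype. Both libraries gave the same order of classes, although the intervals of the classes with both genes and with Klra4 only overlapped. Klrc2, which encodes the activating partner receptor NKG2C, went the other way with Klra4, at 452 CPM in positive and 309 CPM in negative barcodes of 3xTg-AD (ratio 1.46, 1.26 to 1.70) and 309 and 184 CPM in wildtype (1.67, 1.38 to 2.02). With Klra8 the Klrc2 ratio was 1.34 (1.16 to 1.56) in 3xTg-AD and 1.02 in wildtype. How reads divide between the similar Klrc genes was not tested.

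**Figure D4:**
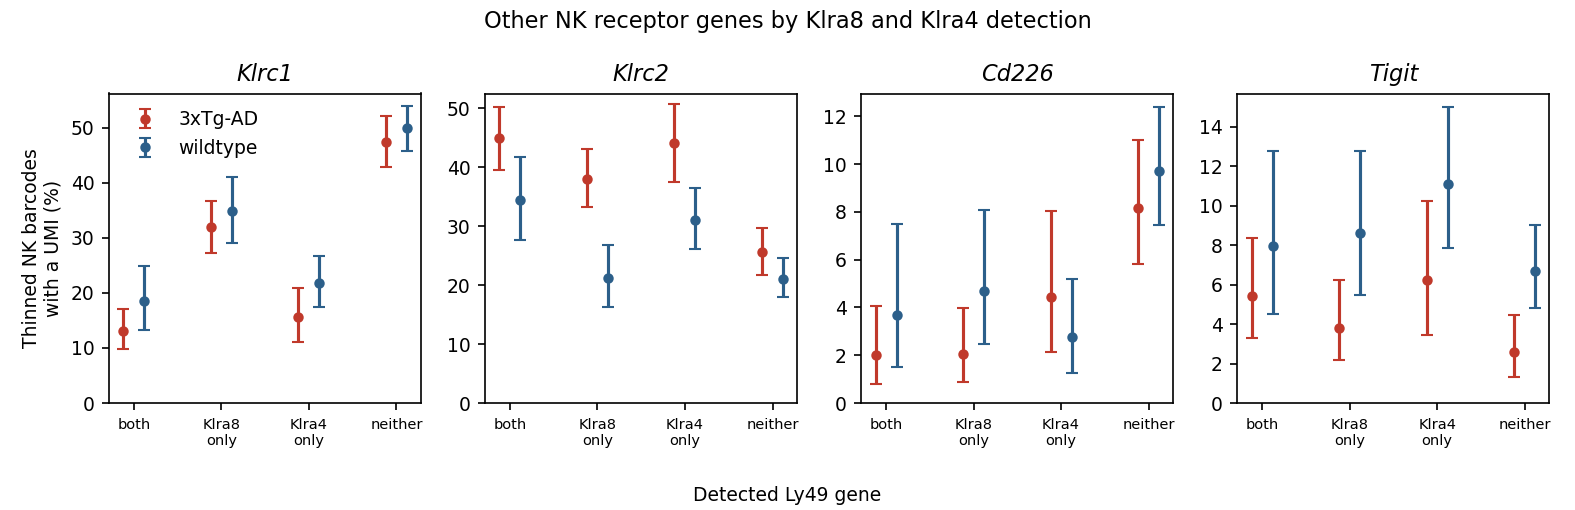
Share of thinned NK barcodes (%) with a UMI of Klrc1, Klrc2, Cd226 or Tigit, by whether both activating Ly49 genes, 1 of them or neither was detected, in 3xTg-AD (red, left) and wildtype (blue, right), with exact binomial 95% intervals. Klrc1 was found in 13.1% of 3xTg-AD and 18.5% of wildtype barcodes with both genes, and in 47.4% and 49.9% of those with neither.

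For maturation, Cd27 marks early and Klrg1 late NK cells, and the Klra8 difference between cells with 1 marker or the other was not distinguishable from 0 in either library at 1400 UMIs. Cd27 was sparse: after thinning, 58 3xTg-AD barcodes held Cd27 only, 3 held Cd27 and Klrg1, and 444 held Klrg1 only, against 70, 6 and 466 in wildtype. Klra8 was found in 41.4% (28.6% to 55.1%) of Cd27-only and 50.9% (46.1% to 55.6%) of Klrg1-only barcodes in 3xTg-AD, and in 34.3% (23.3% to 46.6%) and 32.8% (28.6% to 37.3%) in wildtype. The Klrg1-only minus Cd27-only difference was 9.52 points (-4.97 to 23.2) in 3xTg-AD and -1.45 points (-14.5 to 10.4) in wildtype, and its sign changed between thinning draws in both libraries. Thinned to 1000 UMIs, it was 20.1 points (3.597 to 33.2) in 3xTg-AD and -6.18 points (-21.0 to 6.84) in wildtype. Klra8 shares with Klrg1 minus without differed by -1.12 points (-6.82 to 4.57) in 3xTg-AD and 1.16 points (-4.14 to 6.56) in wildtype. In wildtype this difference was 9.96 points (4.77 to 15.1) without thinning and 8.61 points (2.83 to 14.4) with thinning to 2000 UMIs, so it depended on the depth kept. The genotype difference in Klra8 was as large with Klrg1 only (ratio 1.99, 1.70 to 2.33) as with neither marker (1.997, 1.78 to 2.24), and was 1.24 (0.776 to 1.98) in the few Cd27-only barcodes.

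Klra4 was less frequent where Klrg1 was detected in 3xTg-AD, and in wildtype by an amount that depended on the depth kept. Its share was 34.5% (30.1% to 39.1%) with Klrg1 and 42.7% (39.6% to 45.9%) without in 3xTg-AD, a difference of -8.25 points (-13.7 to -2.68), and 32.8% (28.6% to 37.3%) and 40.2% (36.9% to 43.5%) in wildtype, a difference of -7.32 points (-12.7 to -1.83). In wildtype the interval reached 0 at the other depths tried, with -5.34 points (-10.5 to 0.0356) at 1000 UMIs, -3.53 points (-9.35 to 2.33) at 2000 UMIs and -1.87 points (-7.06 to 3.32) without thinning, whereas in 3xTg-AD it stayed below 0 at all of them. Against Cd27-only barcodes, the Klrg1-only difference was -12.5 points (-26.8 to 1.45) in 3xTg-AD and -2.88 points (-15.9 to 9.09) in wildtype, neither set apart from 0 in this draw. In 3xTg-AD it was below 0 in all 20 thinning draws, with 9 of 20 intervals below 0, and was -13.0 points (-23.6 to -1.88) without thinning, -14.1 points (-28.2 to -0.130) with other lineages kept and -14.9 points (-29.4 to -0.352) with the ILC1-like gate of 2 UMIs. In wildtype it was -16.1 points (-31.1 to -1.97) when thinned to 1000 UMIs. The Klrc1 pattern was present on both sides of Klrg1: among Klrg1-positive barcodes Klra4 was found in 16.4% of Klrc1-positive and 43.7% of Klrc1-negative ones in 3xTg-AD, and in 20.9% and 40.0% in wildtype. Among barcodes without Klrg1 these shares were 20.4% and 51.3% in 3xTg-AD, and 21.8% and 50.2% in wildtype. ILC1-like barcodes had almost no Klrg1 after thinning, with 0 of 72 in 3xTg-AD and 4 of 90 in wildtype, and Cd27 was in 1 and 5 of them, so these barcodes could not be set side by side by maturation. Those without Klrg1 were nearly the whole ILC1-like gate, at 72 of 72 in 3xTg-AD and 86 of 90 in wildtype. Among them, on the counts of 1 thinning draw, Klra8 was at 288 CPM in 3xTg-AD and 241 CPM in wildtype (ratio 1.19, 0.689 to 2.07). Klra4 was at 149 and 324 CPM (0.459, 0.235 to 0.852), from 15 UMIs in 3xTg-AD and 39 in wildtype. Unthinned counts of all ILC1-like barcodes gave a Klra4 ratio of 0.820 (0.622 to 1.08), with an interval that includes 1.

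**Figure D5:**
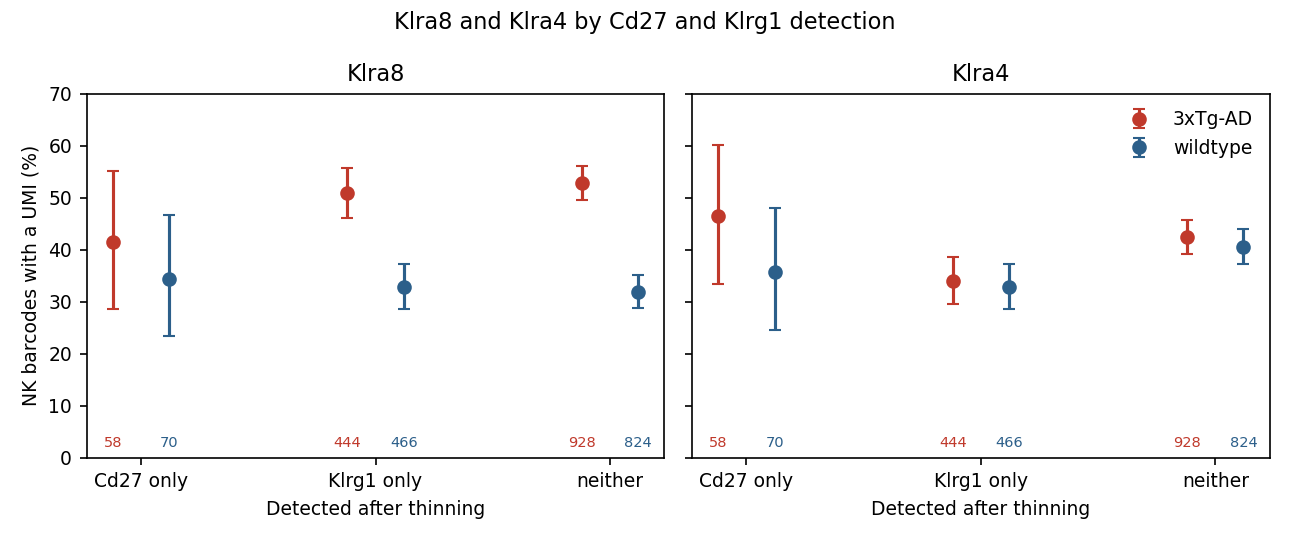
Share of thinned NK barcodes (%) with a UMI of Klra8 (left) or Klra4 (right) by detection of Cd27 and Klrg1, in 3xTg-AD (red, left) and wildtype (blue, right), with exact binomial 95% intervals and the number of barcodes below. The Klra8 gap between genotypes is present with Klrg1 only (50.9% in 3xTg-AD and 32.8% in wildtype), and the 3 and 6 barcodes with both markers are not drawn.

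Early maturation genes beyond Cd27 were lower in cells with either receptor. Among all 7199 genes compared in thinned NK barcodes, 4.17% were at least 25% higher in Klra8-positive than in Klra8-negative barcodes of both libraries and 4.01% at least 20% lower, the same fold in either direction. Of 13 measured early maturation genes, 5 were lower with Klra8 (Il7r, Ltb, Emb, Thy1 and Xcl1) and none higher. The list's median log2 ratio stood at -0.33 in 3xTg-AD and -0.24 in wildtype, beside 0.01 in each over all genes. Il7r, the interleukin-7 receptor chain, was at 4.81 CPM in Klra8-positive and 48.6 CPM in Klra8-negative barcodes of 3xTg-AD and at 19.3 and 77.5 CPM in wildtype. Ltb, which encodes lymphotoxin beta, was at 45.2 and 108 CPM in 3xTg-AD (ratio 0.421, 0.292 to 0.599) and at 51.5 and 133 CPM in wildtype (0.386, 0.256 to 0.566).

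Klra4 gave a similar early list. Over all genes, 4.14% were higher and 4.54% lower in Klra4-positive cells of both libraries, and of the 13 early genes 5 were lower (Il7r, Ltb, Thy1, Emb and Cxcr3) and 1, Cd69, was higher. Il7r had no UMI in the 575 Klra4-positive 3xTg-AD barcodes, against 43.3 CPM in negative ones (upper bound of the ratio 0.110), and it was at 22.2 CPM in positive and 80.5 CPM in negative wildtype barcodes. Of 15 late maturation genes, 1 was higher with Klra8 (Itgax) and none lower, while none was higher and 2 were lower with Klra4. The lower pair was Klrg1 itself (ratio 0.772 in 3xTg-AD and 0.753 in wildtype) and the chemokine receptor gene Cx3cr1 (0.660 and 0.639). Klra4-positive cells thus held less of both the early gene Il7r and the late gene Klrg1.

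ILC1 also express Il7r, and the summed ILC1 markers were also lower with either receptor within the NK gate. Their 5 summed markers were at 16.4 CPM in Klra8-positive and 26.9 CPM in Klra8-negative barcodes of 3xTg-AD (ratio 0.609, 0.310 to 1.17), and at 22.5 and 42.6 CPM in wildtype (0.529, 0.271 to 0.963). Grouped by Klra4 they were at 12.4 CPM in positive and 27.5 CPM in negative barcodes of 3xTg-AD (0.452, 0.199 to 0.939), and at 19.5 and 46.1 CPM in wildtype (0.422, 0.217 to 0.769). The single markers did not all share this direction: Inpp4b had ratios of 1.21 in 3xTg-AD and 1.04 in wildtype with Klra8 and 0.314 and 1.11 with Klra4, and Tnfsf10 had 2.24 in 3xTg-AD with Klra4, from 3 UMIs in positive and 2 in negative barcodes (0.256 to 26.8). An ILC1 marker UMI was found in 1.74% to 5.87% of the barcodes of each group, and the part of ILC1-like cells in the early gene differences was not tested.

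Among transcription factor genes, Eomes, which directs NK cell maturation, was higher with both receptors. It was at 281 CPM in Klra8-positive and 194 CPM in Klra8-negative 3xTg-AD barcodes (ratio 1.45, 1.20 to 1.75), and at 261 and 197 CPM in wildtype (1.32, 1.08 to 1.62). With Klra4 its ratios were 1.48 (1.23 to 1.78) and 1.63 (1.34 to 1.98). Of 17 measured factors, Eomes was higher and the scarce Ikzf2 lower with Klra8, and Eomes, Runx1 and Tox were higher with Klra4. Ikzf2 had ratios of 0.745 (0.256 to 2.10) in 3xTg-AD and 0.765 (0.272 to 1.90) in wildtype with Klra8, and both intervals include 1. With Klra4, Runx1 had ratios of 1.28 (0.906 to 1.80) in 3xTg-AD and 1.56 (1.09 to 2.23) in wildtype, so its 3xTg-AD value lies within counting error. Tox had larger ratios than Eomes with Klra4, 1.62 (0.883 to 2.99) and 1.92 (0.991 to 3.75), but both intervals include 1. Id2, an inhibitor of basic helix-loop-helix factors, was below 1 with Klra8 at 0.744 (0.636 to 0.868) and 0.849 (0.737 to 0.977).

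Among 19 other NK receptor genes, 2 were lower and none higher with Klra8 (Klrc1 and Cd226), whereas 4 were higher (Klrc2, Klrc3, Klri2 and Tigit) and 3 lower (Klrc1, Cd226 and Klrb1b) with Klra4. Cd226 encodes the activating receptor DNAM-1 and Tigit an inhibitory receptor that shares its ligands. Cd226 was at 22.4 CPM in Klra4-positive and 40.0 CPM in Klra4-negative barcodes of 3xTg-AD (ratio 0.560, 0.306 to 0.980) and at 22.2 and 63.7 CPM in wildtype (0.349, 0.190 to 0.604). With Klra8 its ratios were 0.298 (0.158 to 0.532) in 3xTg-AD and 0.614 (0.358 to 1.01) in wildtype, where the interval includes 1. Tigit had ratios of 1.85 (1.10 to 3.13) in 3xTg-AD and 1.42 (0.989 to 2.03) in wildtype with Klra4, so the wildtype interval includes 1. It was found in 5.43% of barcodes with both genes, 6.22% with Klra4 only and 2.58% with neither in 3xTg-AD, and in 7.94%, 11.1% and 6.70% in wildtype.

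None of 4 adaptor genes and none of 25 measured signalling genes passed that fold in both libraries for either receptor. Against a background of 4.01% to 4.54% in each direction, these counts say nothing particular about the signalling genes. Single libraries held larger values: with Klra4, Cbl, which encodes a ubiquitin ligase, had a ratio of 1.38 (1.04 to 1.83) in 3xTg-AD and 1.21 (0.875 to 1.66) in wildtype, and Sh2d1b1, which encodes the SLAM receptor adaptor EAT-2, had 0.480 (0.265 to 0.828) and 0.871 (0.545 to 1.37). Tyrobp was 1.14-fold (1.09 to 1.18) higher in Klra4-positive barcodes of 3xTg-AD and 1.11-fold (1.06 to 1.16) in those of wildtype, and with Klra8 1.03-fold (0.989 to 1.08) and 1.09-fold (1.04 to 1.14). Of 10 effector genes, Xcl1 was lower with Klra8 and the scarce Gzmk higher with Klra4. Gzmb, which encodes granzyme B, was 0.891 (0.828 to 0.958) with Klra8 in 3xTg-AD and 0.620 (0.582 to 0.660) in wildtype. Of 9 genes that receptor triggering is known to induce, Myc was lower with either receptor and Cd69 higher with Klra4, so the list as a whole gave no common direction. These folds come from 1 thinning draw, and many of the genes are scarce.

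Ranked over all 7199 genes by Pearson r of log counts across thinned NK barcodes, taking the smaller of the 2 libraries, Klra8 was most like Klra4 (r = 0.155 over 1433 3xTg-AD barcodes and 0.104 over 1366 wildtype barcodes), then Mbnl2, Klra7, Malat1 and Il18rap. It was least like Klrc1 (-0.158 and -0.123), Il7r, Ltb, Id2 and S100a4. Klra4 was most like Klrc2 (0.133 and 0.144), Klra8, Klri2, Tyrobp and Gzma, and least like Klrc1 (-0.251 and -0.247), Thy1, Il7r, Ltb and Tmsb10. All these values are small, the counts per barcode are sparse and the barcodes of a genotype share 1 library, so r serves here to rank genes.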

How the data were processed

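Each deposited matrix holds counts, the number of UMIs of a gene in a barcode, with no normalization applied. Cell Ranger 3.1.0, STAR and mm10 are named in the submitters' processing notes, and software version 3.0.2 stands in the matrices, per the file headers. No source used here names the gene annotation behind the counts. Barcodes with under 300 genes (10 in 3xTg-AD, 45 in wildtype), over 10% mitochondrial UMIs (0 and 2) or called doublets by Scrublet in scanpy 1.11.5 (22 and 13) were left out, which kept 1663 and 1649. NK and ILC1-like gates left out barcodes with 3 or more T, B or myeloid marker UMIs or 10 or more erythroid ones. Sums were scaled to CPM. Intervals are exact Poisson for sums, Clopper-Pearson for shares, conditional binomial for ratios and Newcombe's hybrid for differences of shares. UMIs were thinned at random to 1400 a barcode, and a gene was positive at 1 UMI. Ratios were checked on simulated data with 200 genes changed. Thinning was checked on the wildtype NK barcodes, against the exact expected shares with Klra8 and Klra4. Genes named are the members, Ly49 genes with at least 20 UMIs, the 5 most and least alike, and up to 4 a list of those with the largest ratios in 1 direction. Other list members past a fold of 25% upward or 20% downward in both libraries are named as well. The members and lists were chosen with earlier results of these data known.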

Additional observations from a re-analysis of the deposited data

Results flagged for a closer look

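Klra4 and Klra9 moved in opposite directions between genotypes in the 2 gates: the log2 ratio of 3xTg-AD over wildtype was -0.29 in ILC1-like and 0.33 in NK barcodes for Klra4, and -0.23 and 0.24 for Klra9. With 1 library per genotype the difference was not tested, and with the gate of 3 UMIs the ILC1-like intervals of both genes include 0 on the log2 scale.

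Both receptor genes were also seen outside the gates used. Of 35 3xTg-AD barcodes with 3 or more T cell marker UMIs, 40.0% (23.9% to 57.9%) held Klra8 and 22.9% (10.4% to 40.1%) held Klra4, against 33.3% (18.0% to 51.8%) for each gene in 33 such wildtype barcodes. Ncr1 was found in 94.3% and 66.7% of these barcodes, and Cd3e in 42.9% and 48.5%.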

How the results depend on the processing

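Of 276 values recomputed for 20 results under 18 alternatives (15 planned, 3 chosen after seeing the data), 257 stayed within the main interval, 19 moved and 0 changed sign where the main interval excluded no difference. NK ratios ranged from 1.88 to 1.97 for Klra8 and from 1.21 to 1.28 for Klra4, also without the 10% of barcodes with the largest heat-shock or interferon gene share. Of 256 recomputed values with an interval, 17 gained an interval that excludes no difference and 4 lost it. ILC1-like ratios moved with the gate, to 1.68 for Klra8 at 2 UMIs and 0.868 for Klra8 at 5 UMIs, and to 0.585 for Klra8 and 1.16 for Klra4 with a gate on thinned counts. Thinning to 1000 UMIs gave 6.95 points for the Klra4 share difference between genotypes and -16.1 for Klra4 in wildtype Klrg1-only minus Cd27-only barcodes, 20.1 for Klra8 in 3xTg-AD Klrg1-only minus Cd27-only barcodes and 4.73 for Klra4 by Klra8 in wildtype. The Klra4 difference by Klrc1 was -17.1 points in wildtype at 1000 UMIs, -30.7 in wildtype at 2000 UMIs, -36.2 in 3xTg-AD without thinning, and -18.0 in 3xTg-AD and -15.8 in wildtype with 2 UMIs needed. Thinning to 2000 UMIs gave 23.9 points for the Klra8 share difference between genotypes and 8.61 for Klra8 in wildtype barcodes with Klrg1 minus those without. Without thinning, the difference in Klra4 share between Klra8-positive and negative barcodes was 24.9 points in 3xTg-AD and 14.7 in wildtype, and the difference in Klra8 share by Klrg1 was 4.68 and 9.96. With 2 UMIs needed, the Klra8 genotype difference was 14.3 points, and the Klra4 difference by Klra8 was 8.69 in 3xTg-AD and 14.5 in wildtype. The cause was not tested. Depth limits results on Cd27, which few barcodes hold, and on ILC1-like barcodes. No paired analysis was possible because there is 1 library per genotype and no replicate number.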
